A study of Homo sapiens with 25 samples.

Results

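The ERBB family of receptor tyrosine kinases and its feedback inhibitor ERRFI1 were examined as 4 gene windows, each the GRCh38 gene body with 50 kb on either side: EGFR (chr7:55019017-55211628), ERBB2 (chr17:39688094-39728658), ERBB3 (chr12:56080108-56103505) and ERRFI1 (chr1:8011727-8026309). They are 4 of 19974 protein-coding genes on chromosomes 1 to 22 and X, and the members were every peak of 20 ChIP-seq peak lists that overlapped a window. For NKX2-1 these were 75 of 75657 peaks in NCI-H2087, 70 of 87160 in HCC364, 66 of 75747 in NCI-H358 and 75 of 90578 in NCI-H441. The 4 lines are human lung adenocarcinoma lines, grown in culture without a treatment named in the labels and fixed with formaldehyde. Each line had a library for NKX2-1, for H3K27ac (found at active promoters and enhancers) and for H3K4me1 (found at enhancers). NCI-H2087 had 8 more: H3K4me3, a mark of promoters, the insulator protein CTCF, RNA polymerase II (RNAPolII), the coactivator EP300, c-Jun (part of AP-1), SOX2 and the pioneer factors FOXA1 and FOXA2. Each line and antibody is 1 library of a bulk culture, so no difference between lines is backed by a replicate, and fewer cells carrying a mark cannot be told apart from less of the mark per cell.

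EGFR is the receptor of epidermal growth factor and related ligands, ERBB2 is a ligandless partner that pairs with the other receptors, and ERBB3, whose kinase is weak, binds neuregulins and couples the pair to PI3-kinase. ERRFI1, also called MIG6, binds the kinase domain of EGFR and ERBB2 and dampens their signal as negative feedback. Activated EGFR and ERBB2 are drivers of lung adenocarcinoma. NKX2-1 is the homeodomain factor of the lung epithelial lineage and is amplified in some of these tumours.

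The lists cannot be read against depth, because no read totals were given in the files used here. Their lengths ranged from 75657 to 90578 NKX2-1 peaks, 47136 to 56384 H3K27ac peaks and 91807 to 121789 H3K4me1 peaks over the lines, with HCC364 longest for both marks. All 6 epithelial marker genes (EPCAM, CDH1, KRT7, KRT8, KRT18 and KRT19) had an H3K27ac peak within 1 kb of a gene end in 4 lines. Of 3 lung markers, NKX2-1 and NAPSA did so in 4 lines and SFTPB in 3. Of the markers of leukocytes, endothelium and fibroblasts reported here, COL1A1 did so in 4 lines, CD3E in 3, PDGFRB in 2 and CD14 in 1, and PTPRC, PECAM1, CDH5, TIE1, COL1A2 and DCN in none. Over all genes 49.4% had such a peak in 4 lines.

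Sequences of 3 start sites, the 250 bases upstream of each in RefSeq's GRCh38.p14 table, are shown because the lists differed most clearly between them: the EGFR and ERRFI1 gene starts carried promoter chromatin without an NKX2-1 summit within 1 kb, while a start annotated inside the EGFR gene carried an NKX2-1 peak in every line. They lie at chr7:55018767-55019016 (+ strand) for the first EGFR start, chr7:55109589-55109838 (+ strand) for the internal start and chr1:8026310-8026559 (− strand) for ERRFI1. Capitals mark matches to 5 motifs searched on both strands: the NKX2-1 core CTCAAG, forkhead TGTTTNC, AP-1 TGANTCA, SOX CATTGT and CTCF AGGNGGC.
EGFR, first start: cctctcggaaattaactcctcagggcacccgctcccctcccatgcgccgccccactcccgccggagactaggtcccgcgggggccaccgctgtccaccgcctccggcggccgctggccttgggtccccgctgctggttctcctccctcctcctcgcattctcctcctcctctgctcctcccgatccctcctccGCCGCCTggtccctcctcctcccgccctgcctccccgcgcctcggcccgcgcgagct
EGFR, internal start: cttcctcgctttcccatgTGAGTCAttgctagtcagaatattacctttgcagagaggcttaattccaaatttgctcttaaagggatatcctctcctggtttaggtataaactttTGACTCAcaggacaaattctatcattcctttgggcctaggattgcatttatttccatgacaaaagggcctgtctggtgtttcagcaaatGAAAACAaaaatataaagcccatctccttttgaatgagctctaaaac
ERRFI1: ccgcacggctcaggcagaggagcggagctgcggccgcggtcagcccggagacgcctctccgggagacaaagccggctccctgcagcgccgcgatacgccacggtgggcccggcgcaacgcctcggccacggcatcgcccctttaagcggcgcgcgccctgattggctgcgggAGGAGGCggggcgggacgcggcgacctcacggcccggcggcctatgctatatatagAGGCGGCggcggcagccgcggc
The internal EGFR window held 2 AP-1 matches, TGAGTCA at −232 and TGACTCA at −136 from the start, and a forkhead match on the other strand at −47. Among 34961 promoter windows of the same length 6.54% held the AP-1 motif and 15.5% the forkhead motif. The first EGFR window held 1 CTCF match and the ERRFI1 window 2, a motif found in 31.6% of windows. None of the 3 windows held CTCAAG (10.4% of windows) or CATTGT (9.25%). Their GC contents were 73.6% at the first EGFR start, 38.8% at the internal start and 75.2% at ERRFI1. A match is a run of letters and does not show binding.

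Merged over the 4 lines, NKX2-1 peaks formed 96 regions in the windows, and 39 of them (40.6%) had a peak in all 4 lines. Over the genome 22.3% of 145799 regions did so, and 23.7% of the 113826 regions within 50 kb of a gene body. The share was high at ERBB3 (10 of 15 regions, 66.7%) and ERRFI1 (14 of 25, 56.0%). At EGFR it was 10 of 38 (26.3%) and at ERBB2 5 of 18 (27.8%), close to the background. Per 100 kb the windows held 12.2 shared regions at ERRFI1, 8.10 at ERBB3, 3.56 at ERBB2 and 3.42 at EGFR, against a median of 1.68 over all genes. Without HCC364, ERBB2 had 9 regions shared by the other 3 lines. Leaving out a line eases the rule, and counts then also rose to at most 14 at EGFR and 17 at ERRFI1. The share over all genes for 3 lines is not given here. For regions shared by 4 lines, only 0.0401% of genes had as many per 100 kb as ERRFI1 and 0.961% as many as ERBB3. More genes had as many as ERBB2 (19.3%) or EGFR (20.7%). The median NKX2-1 fold over local background at ERRFI1 was 5.57 in NCI-H2087 and 6.37 in NCI-H358, below the list medians of 8.29 and 7.78. It was also lower in NCI-H441 (8.36 against 9.14), but not in HCC364 (9.19 against 9.03). ERRFI1 had 10 shared regions at a −log10 q of at least 10, and 1 with the 20000 strongest peaks per list. ERBB3 had 10 and 3. The gene ranks use the full lists, and ranks at these stricter settings are not given here.

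Covered length spread more widely between the lines at EGFR than at ERRFI1. H3K27ac peaks covered 73.1 kb of the 292.6 kb EGFR window in HCC364, 53.2 kb in NCI-H2087, 29.4 kb in NCI-H441 and 22.3 kb in NCI-H358. H3K4me1 followed the same order, with 101 kb, 79.5 kb, 53.5 kb and 44.6 kb. NKX2-1 peaks numbered 28 in HCC364, 27 in NCI-H2087, 23 in NCI-H441 and 17 in NCI-H358. The first 2 of these lines were thus the most heavily marked at EGFR for each of the 3 antibodies. HCC364 also had the longest H3K27ac list of the series, covering 94.9 Mb against 70.0 to 76.2 Mb in the other lines. The local background around EGFR, solved from fold and p of peaks within 1 Mb and divided by the library median, was higher in NCI-H2087 and HCC364 than in the other 2 lines. In the NKX2-1 libraries it was 1.34 in NCI-H2087, 1.09 in HCC364, 0.846 in NCI-H441 and 0.820 in NCI-H358, and in the H3K27ac libraries it was 1.25 in NCI-H2087, 1.03 in HCC364 and below 1 in the other two. The part of local background and list length in the differences was not tested.

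At ERBB2 HCC364 was the lowest line instead of the highest. H3K27ac covered 23.8 kb of its 140.6 kb window in NCI-H358, 21.3 kb in NCI-H2087, 15.0 kb in NCI-H441 and 7.56 kb in HCC364, the line whose H3K27ac list was longest overall. H3K4me1 covered 31.0 kb in NCI-H358, 28.1 kb in NCI-H2087, 25.7 kb in NCI-H441 and 10.7 kb in HCC364. NKX2-1 peaks numbered 17 in NCI-H358, 15 in NCI-H441, 11 in NCI-H2087 and 9 in HCC364. The covered share of the window in HCC364, 5.38% for H3K27ac, was near the 4.65% of the median gene in that line. Local background of the HCC364 H3K27ac library near ERBB2 was 0.937 of its median, against 0.818 in NCI-H358, 0.865 in NCI-H2087 and 1.00 in NCI-H441. The part of local background in the differences at ERBB2 was not tested.

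At ERRFI1 every line was heavily acetylated. H3K27ac covered 41.7 kb of the 114.6 kb window in NCI-H2087, 50.3 kb in NCI-H358, 55.6 kb in NCI-H441 and 54.6 kb in HCC364, which is 36.4% to 48.5% of the window against medians of 3.41% to 4.65% over all genes. At most 0.200% of genes in any line had a covered share as high. ERBB3 was even across the lines, with 18.6 kb of its 123.4 kb window in NCI-H2087, 20.4 kb in NCI-H358, 18.8 kb in NCI-H441 and 25.8 kb in HCC364. H3K4me1 at ERBB3 covered 10.6 to 15.1 kb, less than H3K27ac in every line.

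**Figure D1:**
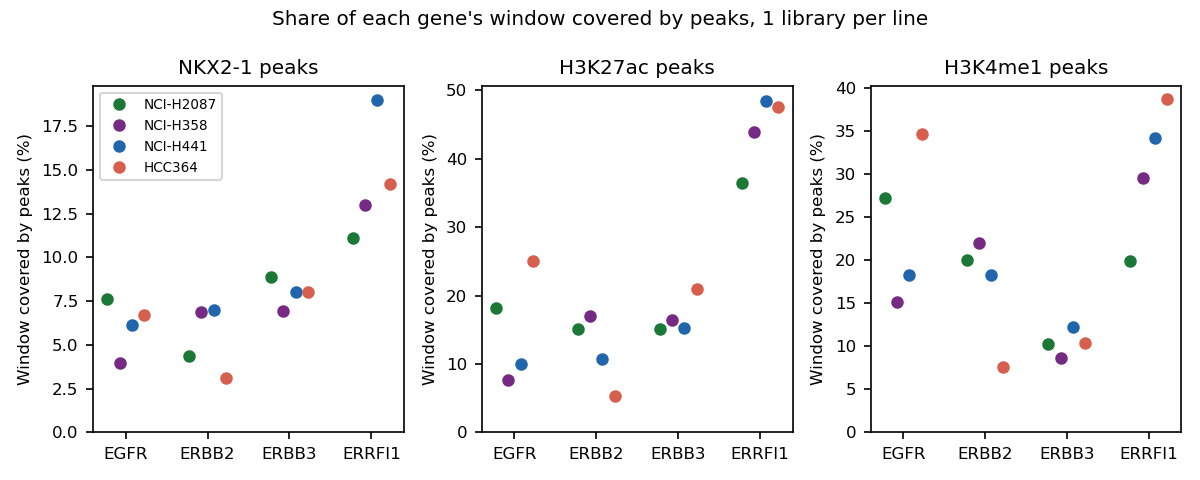
Percent of each gene's window (gene body and 50 kb each side) covered by peaks of NKX2-1, H3K27ac and H3K4me1. Each point is 1 library of 1 line; ERRFI1 lies between 36.4% and 48.5% for H3K27ac, and HCC364 is the top line at EGFR (25.0%) and the bottom line at ERBB2 (5.38%).

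Within 1 kb of the EGFR start lay an H3K27ac peak in 4 lines and an NKX2-1 peak in none. The H3K27ac folds there, as the authors' caller gave them over local background, were 22.7 in HCC364, 17.7 in NCI-H2087, 12.7 in NCI-H441 and 12.4 in NCI-H358. Folds of different libraries are set side by side as descriptions and do not measure a change, since each depends on its own library. These peaks were 6.06 kb wide in HCC364 and 4.51 kb in NCI-H2087, but 1.58 kb in NCI-H441 and 1.26 kb in NCI-H358. In NCI-H2087 the start also had H3K4me3 (fold 82.1) and RNA polymerase II (fold 9.24), and no FOXA1, FOXA2, c-Jun, SOX2 or EP300 peak. The nearest NKX2-1 summits lay just inside the gene at 1.7 kb in NCI-H2087, NCI-H358 and HCC364, with folds of 4.47, 4.57 and 9.60, and none was called there in NCI-H441.

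Most NKX2-1 regions at EGFR were intragenic, but the gene body also makes up 192.6 kb of the 292.6 kb window. Of the 10 regions shared by the 4 lines, 8 lay inside the gene and 2 upstream, at −33.4 and −22.9 kb. The highest by mean fold was at +68.1 kb (chr7:55086027-55087562), where NKX2-1 fold was 53.8 in HCC364, 29.9 in NCI-H2087, 24.0 in NCI-H441 and 9.18 in NCI-H358. The HCC364 peak stood among the top 1.59% of its list, while that of NCI-H358 stood among the top 38.2%. FOXA1 (fold 44.5), FOXA2 (57.5), c-Jun (8.57), EP300 (6.38), RNA polymerase II (5.13) and CTCF (5.32) peaks lay on the same region in NCI-H2087. The upstream region at −22.9 kb (chr7:54994208-54996655) was second among the shared regions, with 20.8 in NCI-H2087, 23.8 in HCC364, 9.77 in NCI-H358 and 20.9 in NCI-H441. It held H3K27ac in NCI-H2087, NCI-H441 and HCC364 and none in NCI-H358.

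A cluster between +107 and +117 kb gathered the other factors. Its region at +114.0 kb (chr7:55132415-55134192) had NKX2-1 folds of 20.7 in NCI-H2087, 20.7 in HCC364, 9.55 in NCI-H358 and 19.7 in NCI-H441, and was covered by FOXA1, FOXA2, SOX2, c-Jun, EP300, RNA polymerase II and CTCF peaks, 7 of the 8 other NCI-H2087 lists. The c-Jun peak there had a fold of 48.7 and stood among the top 0.0985% of the c-Jun list. The neighbouring region at +108.7 kb (chr7:55126878-55129372) held the highest FOXA1 and FOXA2 peaks of the window, with folds of 90.6 (top 0.637% of the list) and 120 (top 0.410%). NKX2-1 fold there was 28.6 in NCI-H2087, 12.7 in HCC364, 10.8 in NCI-H358 and 15.9 in NCI-H441. A continuous H3K27ac peak spanned the cluster in 3 lines, 10561 bp wide in NCI-H2087, 9710 bp in HCC364 and 8690 bp in NCI-H441. In NCI-H358 the same stretch was split into 3 peaks.

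The internal start at +90.8 kb, whose AP-1 matches are printed above, was marked unlike the first start. NKX2-1 peaks reached the 250 bases in 4 lines with modest folds of 6.14 in NCI-H2087, 2.98 in HCC364, 8.06 in NCI-H358 and 8.56 in NCI-H441. The HCC364 peak was among the lowest of its list. H3K4me1 folds there were 9.67, 7.36, 11.4 and 15.2 in the same lines. H3K27ac peaks lay on or within 1 kb of it in each line. Neither H3K4me3 nor RNA polymerase II nor c-Jun had a peak on these bases in NCI-H2087.

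Of 38 EGFR regions 15 were bound in 1 line, 6 of them in HCC364, 4 in NCI-H2087, 4 in NCI-H441 and 1 in NCI-H358. Over the 4 windows 24 of 96 regions were bound in 1 line. A further 4 EGFR regions were missing from NCI-H358 alone. Genome shares of such regions are not given here, so these counts are not shown to be particular to EGFR. The strongest of the regions missing from NCI-H358 alone was at +86.3 kb. It had folds of 33.8 in HCC364, 20.2 in NCI-H2087 and 15.7 in NCI-H441, and H3K27ac in NCI-H2087 and HCC364.

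**Figure D2:**
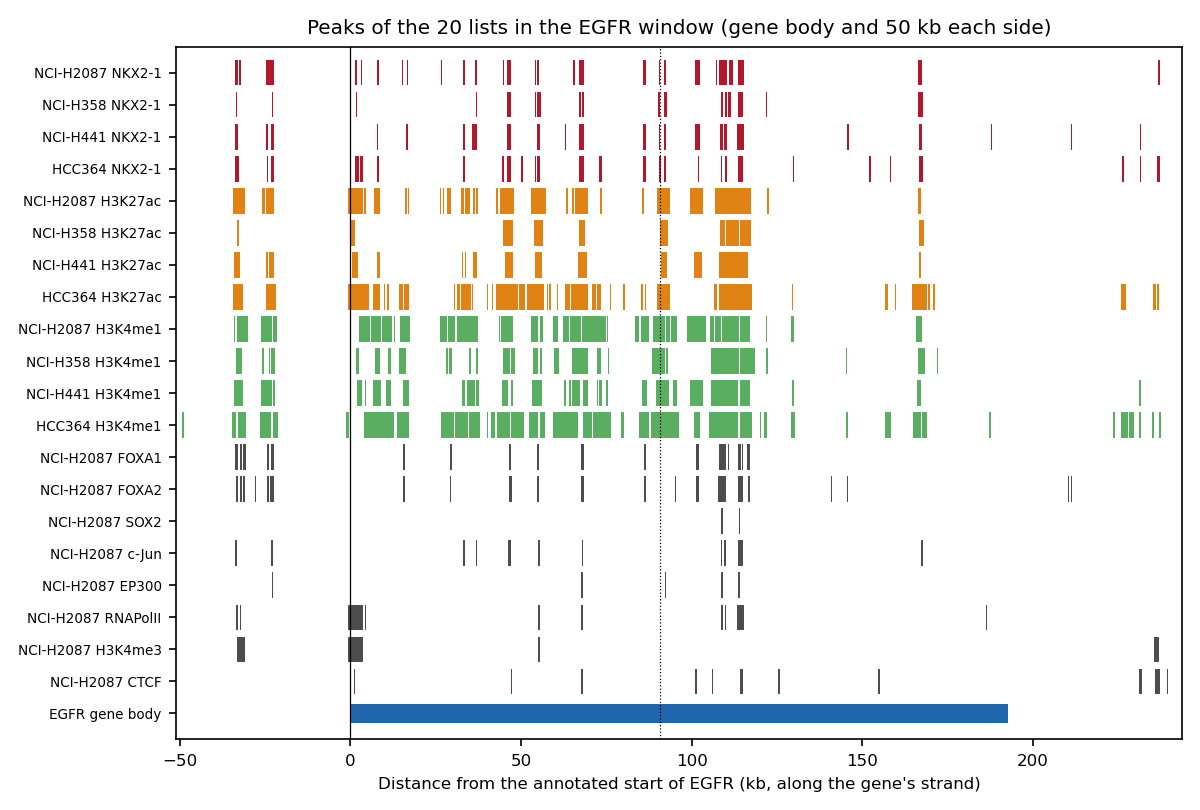
Peaks of the 20 lists (rows) in the EGFR window, drawn as blocks against distance from the first annotated start in kb. The dotted line is the internal start at 90.8 kb; the blocks at 68.1, 108.7 and 114.0 kb recur over NKX2-1, H3K27ac and factor rows, and H3K27ac blocks are fewest in NCI-H358 (10 peaks) and most in HCC364 (40 peaks).

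ERBB2 shares its start with PGAP3, which runs the other way, so peaks there cannot be given to ERBB2 alone. NKX2-1 fold at this start was 9.32 in NCI-H2087, 7.23 in HCC364, 7.53 in NCI-H358 and 8.39 in NCI-H441. Distances are from the outer end of the annotated gene body, and other ERBB2 starts within it are not given here. A second promoter-like site, counted as intragenic, lay inside the gene at +11.8 kb (chr17:39699616-39700078). It had NKX2-1 folds of 8.26 in NCI-H2087, 14.3 in HCC364, 9.51 in NCI-H358 and 11.6 in NCI-H441, H3K27ac in 4 lines, and H3K4me3 (fold 123) and RNA polymerase II (fold 9.22) in NCI-H2087. The HCC364 peak here was that line's highest NKX2-1 peak in the ERBB2 window.

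The ERBB2 sites at +15.4 and +17.9 kb had no NKX2-1 peak in HCC364. At +17.9 kb (chr17:39705655-39706460) NKX2-1 fold was 16.3 in NCI-H358, 16.1 in NCI-H2087 and 17.7 in NCI-H441, and at +15.4 kb it was 6.49, 8.17 and 7.79 in these lines. HCC364 had no H3K27ac peak at either site. H3K27ac peaks of 5020 to 5755 bp spanned them in the other 3 lines. In all, 4 ERBB2 regions were bound in every line but HCC364, and the genome share of such regions is not given here. The highest NKX2-1 region of the window lay at +82.0 kb within IKZF3 (chr17:39769748-39770762), a lymphoid zinc finger gene, with folds of 32.7 in NCI-H2087, 26.6 in NCI-H441, 17.0 in NCI-H358 and 5.19 in HCC364. It carried FOXA1, FOXA2, SOX2, c-Jun and RNA polymerase II peaks, the most factors of any region in the ERBB2 window. Among the regions shared by 4 lines the third by mean fold was at +51.2 kb (chr17:39738692-39740995) in GRB7, the gene of an adaptor that binds activated ERBB2, with 7.40 in NCI-H2087, 12.2 in HCC364, 9.40 in NCI-H358 and 12.1 in NCI-H441.

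At the ERBB3 start an NKX2-1 peak lay in every line. Fold there (chr12:56078876-56080924) was 25.4 in NCI-H2087, 15.1 in HCC364, 17.6 in NCI-H358 and 25.9 in NCI-H441. In NCI-H2087 it was the highest NKX2-1 peak of the window and at 2.05 kb was broad for that list, where 0.786% of peaks were at least as wide. H3K4me3 (fold 143), CTCF (fold 104 at −1.03 kb, top 1.64% of its list), c-Jun (11.3) and RNA polymerase II (8.34) peaks also lay within 1 kb of it, and FOXA1 and FOXA2 were at the bottom of their lists (folds 4.10 and 3.60). ERBB3 had an intragenic site at +7.3 kb with the strongest FOXA1 (48.9) and FOXA2 (31.7) peaks of its window. NKX2-1 fold at this site was 8.00 in NCI-H2087, 11.6 in NCI-H441 and 9.93 in HCC364, and no peak was called in NCI-H358. H3K4me1 there was among the top 0.108% of the list in NCI-H2087, 0.122% in NCI-H441 and 0.653% in NCI-H358, but only the top 25.8% in HCC364.

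Much of the ERBB3 count belongs to its neighbours. Of the 10 shared regions 7 lay within 1 kb of the start of another protein-coding gene, among them the ribosomal protein genes RPS26 and RPL41, PA2G4, ZC3H10 and ESYT1, and leaving these out left 3. The region with the highest mean fold was at the PA2G4 start, +24.3 kb (chr12:56103730-56104870), with 20.5 in NCI-H2087, 38.0 in HCC364, 23.9 in NCI-H358 and 25.5 in NCI-H441. The second of the shared regions, at +47.8 kb (chr12:56127512-56129539) by ESYT1, had 20.8, 29.4, 21.2 and 22.5 in the same lines. The region with most factors was bound in 3 lines, at +72.4 kb by MYL6B, with 7 of the 8 other lists.

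At ERRFI1 broad H3K27ac peaks lay on or next to the start. A single peak covered the start in NCI-H2087 (14.2 kb wide, fold 57.9) and in NCI-H358 (16.8 kb, fold 68.1). In NCI-H441 and HCC364 the calls broke at the start. There a peak over the gene body, 17.3 kb wide with a fold of 42.1 in NCI-H441 and 18.1 kb wide with a fold of 22.1 in HCC364, ended within 1 kb inside the start. A second peak began just upstream of it, 3315 bp wide with a fold of 90.5 in NCI-H441 and 6382 bp wide with a fold of 55.4 in HCC364. Only 0.0805% to 0.151% of peaks in these lists were as wide as the widest of each line. In NCI-H2087 the H3K4me3 peak spanned 12.9 kb (top 0.0311% by width) and RNA polymerase II 21.9 kb (top 0.158%), beyond the 14.6 kb gene body. No NKX2-1 summit lay within 1 kb of the start, though the edges of peaks further upstream came that near in NCI-H2087 and HCC364. The nearest shared region was at −2.0 kb, with folds of 8.55 in NCI-H2087, 6.23 in HCC364, 6.27 in NCI-H358 and 7.05 in NCI-H441.

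The highest NKX2-1 peak of the ERRFI1 window was at the same upstream site in every line. At −35.2 kb (chr1:8061106-8063179) NKX2-1 fold was 27.2 in NCI-H2087, 31.3 in HCC364, 29.7 in NCI-H358 and 31.5 in NCI-H441. It stood among the top 5.96%, 6.47%, 2.95% and 4.92% of these lists. FOXA1 (fold 92.0, top 0.600% of its list), FOXA2 (119, top 0.421%), c-Jun (10.2), EP300 (5.22), RNA polymerase II (13.8), H3K4me3 (6.14) and CTCF (5.34) peaks overlapped it. H3K27ac fold over the site was 32.0 in NCI-H2087, 29.7 in HCC364, 51.1 in NCI-H358 and 41.7 in NCI-H441. The second of the shared regions, at −44.2 kb (chr1:8070003-8071416), had 18.9 in NCI-H2087, 5.05 in HCC364, 21.1 in NCI-H358 and 27.5 in NCI-H441. The third, at −33.1 kb (chr1:8058488-8059758), had 28.1 in HCC364, 18.6 in NCI-H441, 8.85 in NCI-H358 and 7.02 in NCI-H2087. In all 7 of the 14 shared ERRFI1 regions were upstream, 5 intragenic and 2 downstream, and 13 of them had H3K27ac in 4 lines. The exception was at +50.9 kb in PARK7, with FOXA1, FOXA2 and CTCF peaks and no H3K27ac or H3K4me1 in any line.

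**Figure D3:**
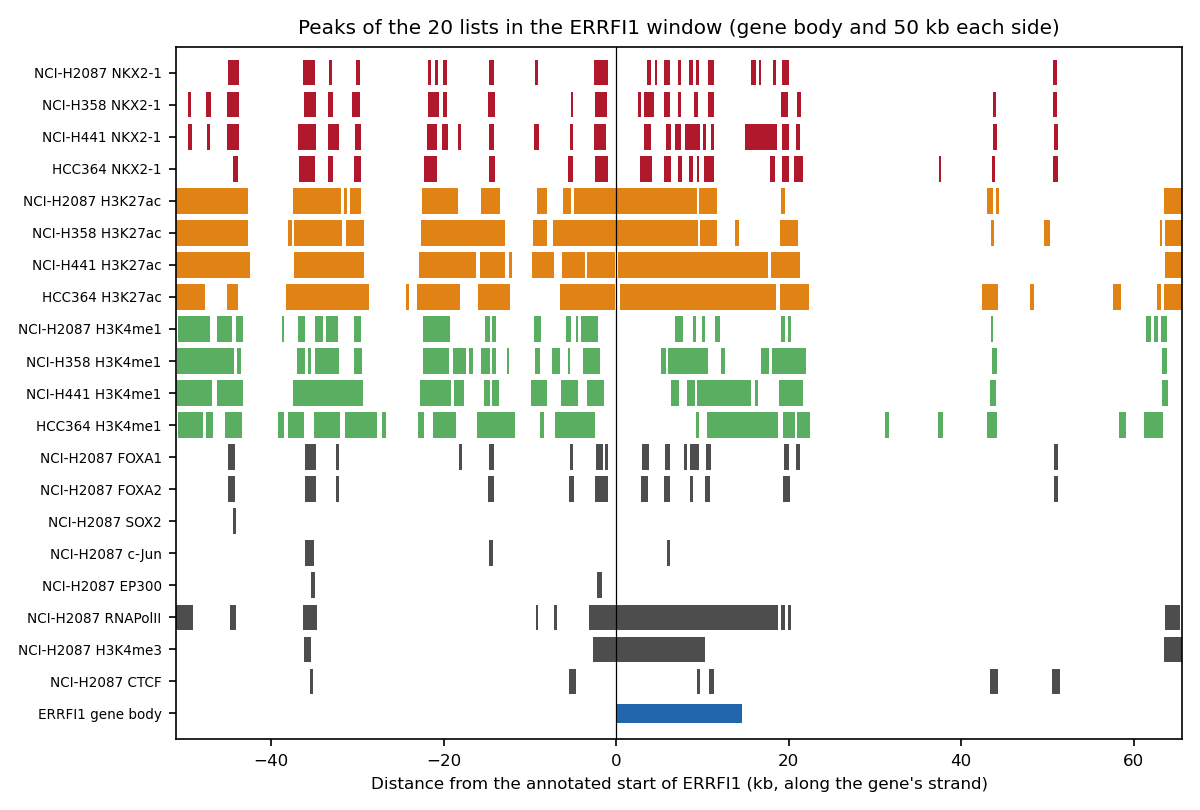
Peaks of the 20 lists (rows) in the ERRFI1 window against distance from its start in kb along the gene's strand. H3K27ac blocks 14.2 and 16.8 kb wide cover the start in NCI-H2087 and NCI-H358, and blocks 17.3 and 18.1 kb wide end just inside it in NCI-H441 and HCC364. A site 35.2 kb upstream has blocks in the NKX2-1, H3K27ac, FOXA1, FOXA2, c-Jun, EP300, RNAPolII, H3K4me3 and CTCF rows.

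Across the 4 windows NKX2-1 peaks overlapped H3K27ac more often than NKX2-1 peaks did over the genome. The share was 63 of 75 in NCI-H2087 (84.0%, exact 95% interval 73.7% to 91.4%), against 52.5% of all its NKX2-1 peaks. It was 83.3% (72.1% to 91.4%) against 51.3% in NCI-H358, 76.0% (64.7% to 85.1%) against 46.4% in NCI-H441, and 84.3% (73.6% to 91.9%) against 51.6% in HCC364. The interval stood above the background in each of the 4 lines, but it covers counting error only, and neighbouring peaks share H3K27ac domains. The mean was 81.9% ± 3.96 (SD, n = 4 lines) in the windows and 50.4% over all peaks. All peaks include those far from genes. Near 15813 genes with a known strand the shares over the lines were 45.9% to 54.7% at intragenic and 52.9% to 61.1% at upstream sites. By gene the means were 89.7% ± 5.68 at ERRFI1, 84.3% ± 9.67 at ERBB3, 80.0% ± 11.9 at EGFR and 66.0% ± 13.9 at ERBB2.

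For H3K4me1 the windows stood nearer the background. The share was 69.3% against 61.7% in NCI-H2087, 77.3% against 69.0% in NCI-H358, 82.7% against 69.6% in NCI-H441 and 68.6% against 62.6% in HCC364. Of these only the NCI-H441 interval (72.2% to 90.4%) excluded the background. The genes parted here, with 92.2% ± 5.69 at EGFR and 46.0% ± 15.5 at ERBB3 (SD, n = 4 lines), where many peaks lay at starts of genes.

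Intragenic sites, whose NKX2-1 summit lay in the gene body more than 1 kb from the start, were compared with upstream sites within 50 kb. The shares with H3K27ac were 97.1% intragenic and 82.4% upstream in NCI-H2087, 84.6% and 89.5% in NCI-H358, 76.7% and 86.4% in NCI-H441, and 83.9% and 92.9% in HCC364. Intragenic sites were higher in 1 of 4 lines. The mean difference was −2.19 ± 11.5 percentage points (SD, n = 4 lines; exact two-sided sign-flip permutation p = 0.875, Benjamini-Hochberg adjusted over 2 marks p = 0.875). For H3K4me1 the shares were 80.0% and 82.4%, 84.6% and 84.2%, 83.3% and 95.5%, and 74.2% and 78.6% in the same lines and site order. The difference was −4.61 ± 5.38 points, higher intragenic in 1 of 4 lines (exact permutation p = 0.25, adjusted p = 0.5). The smallest p that 4 lines allow is 0.125, and neither difference exceeded the spread between lines. Over 15813 genes with a known strand, intragenic minus upstream was −5.70 to −7.02 points for H3K27ac and 7.65 to 12.6 points for H3K4me1.

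The classes were made up of different genes. EGFR gave 23 of the 35 intragenic peaks in NCI-H2087 and ERRFI1 gave 10 of the 17 upstream ones. At ERRFI1 every intragenic and every upstream NKX2-1 peak overlapped H3K27ac in each line. H3K4me1 at ERRFI1 was on 2 of 7 intragenic and 10 of 10 upstream peaks in NCI-H2087, 4 of 6 and 10 of 11 in NCI-H358, 5 of 6 and 13 of 13 in NCI-H441, and 2 of 6 and 7 of 8 in HCC364. Without ERRFI1 the H3K4me1 difference was 15.6 points and the H3K27ac difference 11.3 points, both with the opposite sign to the full set. Without EGFR they were −23.8 points for H3K4me1 and 3.14 points for H3K27ac. Sharing between lines was 14 of 46 intragenic regions (30.4%, 17.7% to 45.8%), 11 of 23 upstream (47.8%, 26.8% to 69.4%) and 12 of 25 downstream (48.0%, 27.8% to 68.7%), with overlapping intervals.

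**Figure D4:**
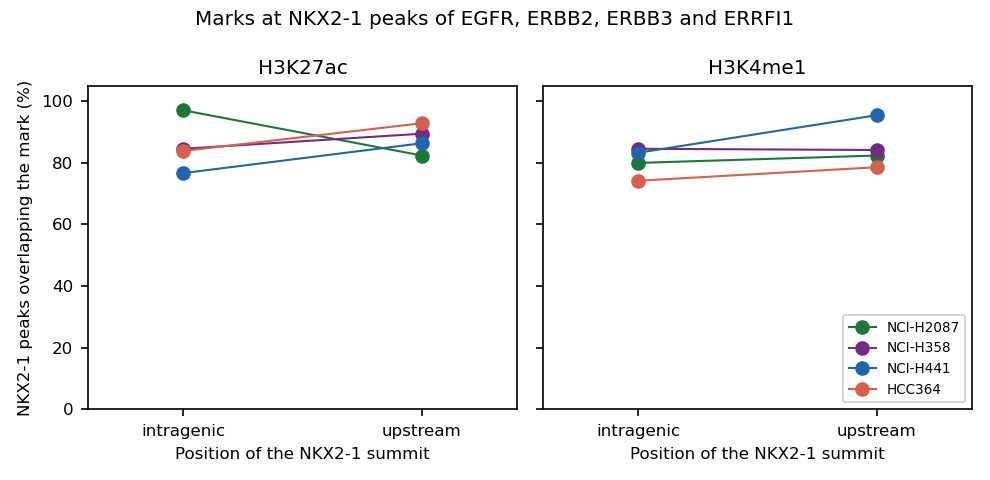
Percent of NKX2-1 peaks that overlap H3K27ac (left) or H3K4me1 (right) at intragenic and upstream sites of the 4 genes together. Lines join the values of 1 cell line; for H3K27ac only NCI-H2087 is higher at intragenic sites (97.1% against 82.4%).

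In NCI-H2087 the 75 NKX2-1 peaks of the windows met RNA polymerase II and H3K4me3 more often, and FOXA2 less often, than all 75657. RNA polymerase II was on 48.0% of them (exact 95% interval 36.3% to 59.8%) against 24.8% of all, and H3K4me3 on 36.0% (25.2% to 47.9%) against 20.4%. FOXA2 was on 41.3% (30.1% to 53.3%) against 58.6%. The intervals cover counting error only, and neighbouring peaks share domains. All peaks include those far from genes, and shares near genes are not given for these lists. H3K4me3 was on 6 of 27 NKX2-1 peaks at EGFR (22.2%), near the background. It was on 6 of 9 downstream of ERBB3, where neighbouring genes lie. At ERRFI1, 7 of 7 intragenic NKX2-1 peaks met RNA polymerase II and 6 of 7 met H3K4me3. There 1 RNA polymerase II peak spanned 21.9 kb and 1 H3K4me3 peak 12.9 kb. For the other lists the interval held the background at the main setting: FOXA1 45.3% against 53.8%, c-Jun 24.0% against 27.6%, EP300 16% against 9.24%, SOX2 5.33% against 11.6% and CTCF 25.3% against 20.6%. Under alternatives EP300 was on 15.8% against 4.81% at a −log10 q of at least 10. By summits FOXA1 was on 32.0% against 47.4%. No intervals are given for these alternatives. With overlap judged by summits within 250 bp, RNA polymerase II was on 14.7% of window peaks and 13.9% of all peaks, so its difference was seen with overlap of whole peaks only.

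Counts by gene were small, and differences between the genes were not tested. Their intervals too cover counting error only and treat peaks that share a domain as separate. The c-Jun list met 10 of 27 NKX2-1 peaks at EGFR (37.0%, exact 95% interval 19.4% to 57.6%), 3 of 22 at ERRFI1 (13.6%, 2.91% to 34.9%), 3 of 15 at ERBB3 and 2 of 11 at ERBB2, and each interval held the 27.6% of all peaks. RNA polymerase II was on 15 of 22 at ERRFI1 (68.2%, 45.1% to 86.1%) and 8 of 27 at EGFR (29.6%, 13.8% to 50.2%), against 24.8% of all peaks. CTCF was on 8 of 15 at ERBB3 (53.3%, 26.6% to 78.7%) and 1 of 11 at ERBB2 (9.09%, 0.230% to 41.3%), against 20.6%. EP300 was on 5 of 15 at ERBB3 (33.3%, 11.8% to 61.6%), 5 of 27 at EGFR (18.5%, 6.30% to 38.1%) and 2 of 22 at ERRFI1 (9.09%, 1.12% to 29.2%), against 9.24%. No EP300 peak was listed at ERBB2 and no SOX2 peak at ERBB3, where the exact 95% intervals of 0 of 11 and 0 of 15 reach up to 28.5% and 21.8%.

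Seen from the partner lists, all 19 c-Jun, 12 EP300 and 4 SOX2 peaks in the windows overlapped NKX2-1. Over the genome 91.3% of c-Jun, 96.3% of EP300 and 96.5% of SOX2 peaks did so, so these counts are near the background. FOXA1 overlapped NKX2-1 in 35 of 45 peaks (77.8% against 60.9%), FOXA2 in 31 of 46 (67.4% against 54.4%) and CTCF in 19 of 37 (51.4% against 25.3%). RNA polymerase II did in 26 of 36 (72.2% against 60.6%) and H3K4me3 in 16 of 21 (76.2% against 55.0%). The genes differed: for CTCF it was 1 of 10 at ERBB2 and 8 of 10 at ERBB3. For FOXA2 it was 52.4% at EGFR and 83.3% at ERBB3 and ERRFI1. Each window held more NKX2-1 peaks per 100 kb than the median gene in NCI-H2087, and the part of this in the shares was not tested.

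**Figure D5:**
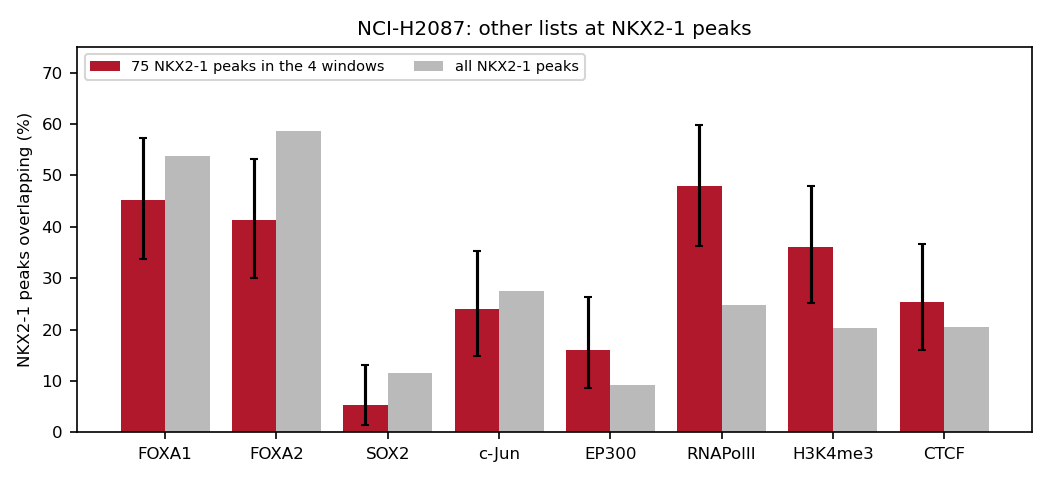
Percent of NCI-H2087 NKX2-1 peaks overlapped by each of the 8 other lists, for the 75 peaks of the 4 windows (red, bars with exact 95% intervals) and for all NKX2-1 peaks (grey). RNAPolII (48.0% against 24.8%) and H3K4me3 (36.0% against 20.4%) are higher in the windows and FOXA2 (41.3% against 58.6%) is lower.

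Of 28 other genes of the pathway, 26 had at least 1 NKX2-1 region shared by 4 lines within 50 kb, against 80.5% of all genes, and their median was 6 such regions against 2. These counts are not divided by window length, and some of the genes are very long. Among 11 ligand genes 9 had one. NRG1, which encodes the neuregulin bound by ERBB3, had the most of the list, while NRG3 and NRG4 had 0. The 15 at NRG1 lay in a long window with 1.21 per 100 kb, below the median of 1.68 over all genes. The phosphatase gene PTPN12 had 10 (4.93 per 100 kb) and the adaptor gene SHC1 had 9 (8.03 per 100 kb). All 5 adaptors and all 11 inhibitors had at least 1, and the ligand gene BTC and the inhibitor gene SPRY2 had 1 each. H3K27ac lay at a gene end in 4 lines for 21 of the 28, against 49.4% of all genes. None lay there in any line at NRG1, NRG2, NRG3, NRG4, LRIG1 and ERBB4, and EPGN had it in NCI-H358 alone. ERBB4, the fourth receptor, thus differed from the 3 receptors described here, each acetylated at a gene end in 4 lines. It had 8 shared NKX2-1 regions in a long window, 0.633 per 100 kb. GRB7 lies in the ERBB2 window, the RNF41 window overlaps that of ERBB3, and the EREG window overlaps those of AREG and EPGN.

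The genes most like each member were found by correlating covered length over 12 libraries (NKX2-1, H3K27ac and H3K4me1 in 4 lines, centred per antibody, on a log2 scale). Genes compared lay on another chromosome or over 1 Mb away. Their mean covered length of each antibody was at least 0.5 of the member's. These r values describe 12 libraries that share lines and list lengths, and are the highest among the genes compared. EGFR was most like MBNL1 (r = 0.946), NAV2 (0.944) and GALNT2 (0.942) of 442 genes compared. ERBB2 was most like NKX1-2 (0.984), TPD52-MRPS28 (0.982) and BTBD3 (0.975) of 4944, and ERBB3 most like ARHGAP9 (0.903), MARS1 (0.888) and TRIM52 (0.882) of 4424. ARHGAP9 and MARS1 overlap each other on chromosome 12, where ERBB3 also lies, so they share peaks and are not separate matches. ERRFI1 was most like SMARCA4 (0.954), RUNX1 (0.932) and HRH1 (0.910) of 683.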

How the data were processed

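The ChIP-seq peak lists, 1 per library, were deposited by the authors in narrowPeak format for 20 of the 25 samples, and 5 input libraries were not analysed here. Groups were taken from sample titles. The build was GRCh38 (hg38) and the tools named were MACS2 in versions 2.1.1 and 2.2.7.1, bedtools, SAMtools 1.9, Bowtie2 2.2.9 and Trimmomatic 0.36, per the submitters' processing notes. The MACS2 version behind each list and any use of inputs are not given in the sources used here. In the deposited lists the fold of the summit over local background is a linear ratio, and p and q are −log10 values of the authors' peak caller. They describe and rank peaks within a list. The lowest −log10 q was 3.00 to 3.14, so a missing peak means only that none passed this level. Read totals are not in the files used here and depth is unknown.

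Peaks off chromosomes 1 to 22 and X (0.0610% to 0.502% of a list) were left out. Peaks sharing at least 1 bp overlapped. Regions were merged over the 4 NKX2-1 lists. Gene bodies came from RefSeq's GRCh38.p14 gene table and start sites, strands and sequences from its promoter table, which matched 3 of the 4 members; the strand of ERBB3 is general knowledge. No exon annotation or genome was given, so sites in the gene body are called intragenic, and the motif search planned for peaks was run on 250-base promoter windows. Shares carry exact Clopper-Pearson 95% intervals. The sign-flip test used the line as its unit. Local background was solved from fold and Poisson p within 0.01 of −log10 p. Overlap and test code was tested on simulated data. Regions named are the 3 shared regions with the highest mean NKX2-1 fold per window and that with the most factors; other regions were named after their values were seen. The 4 members, the pathway list and the markers were chosen with earlier results of these data known. SFTA3 is not protein-coding in the gene table and was left out of the lung markers. One marker of another cell type is not reported here. Alternatives were a −log10 q of at least 10, the 20000 strongest peaks of each list, flanks of 10 kb, overlap by summits, leaving out lines or genes, and leaving out peaks at other genes' starts. Python 3.11.15, numpy 2.4.6, pandas 2.3.3, scipy 1.17.1 and matplotlib 3.10.9 were used.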

Additional observations from a re-analysis of the deposited data

Results flagged for a closer look

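The number of H3K27ac peaks at ERRFI1 stood apart in NCI-H441, with 11 peaks against 14 in each of the other 3 lines. The covered length did not stand apart, at 55.6 kb in NCI-H441, the longest of the 4 lines. Of 24 sets of 4 values examined in this way 1 stood apart, and chance gives about 1 in 20.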

How the results depend on the processing

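No replicate block could be fitted because each line and antibody is 1 library and the labels give no replicate numbers that groups share; the intragenic and upstream shares were paired within lines. Of 156 recomputed values for the main results 123 were counted as the same, 21 as moved and 12 as turned in sign. The intragenic minus upstream differences were counted as the same on sign alone, whatever their size. Thus −15.6 points counted as the same as −2.19 for H3K27ac, and −23.8 as the same as −4.61 for H3K4me1. Other values were allowed some change in size: at EGFR, 14 shared regions without NCI-H358 counted as the same as 10. For all recomputed values the cause was not tested beyond what each alternative leaves out. Shared NKX2-1 regions fell with fewer peaks: with the 20000 strongest peaks of each list they numbered 0 at EGFR, 0 at ERBB2, 3 at ERBB3 and 1 at ERRFI1, and with a −log10 q of at least 10 there were 3 at ERBB2. Within 10 kb of the gene they were 3 at ERBB2, 2 at ERBB3 and 7 at ERRFI1, and 3 at ERBB3 without peaks at other genes' starts. Leaving out each line gave 11 to 14 at EGFR, 4 to 9 at ERBB2, 10 to 12 at ERBB3 and 14 to 17 at ERRFI1. The mean share with H3K27ac was 70.1% by summits (38.5% over all NKX2-1 peaks), 80.2% at the stricter q (45.4%) and 85.3% for the strongest peaks (45.5%), and 81.1% to 83.9% without each line. With H3K4me1 it was 65.4% at the stricter q (53.9% over all peaks), 57.8% for the strongest peaks (48.9%), 55.4% by summits (43.7%), and 71.7% to 76.4% without each line. In NCI-H2087 summit overlap gave 32.0% for FOXA1, 14.7% for RNA polymerase II and 14.7% for CTCF, against 47.4%, 13.9% and 15.5% of all NKX2-1 peaks by the same rule. The strongest peaks gave 22.2% for SOX2, 50% for c-Jun, 55.6% for EP300 and 72.2% for RNA polymerase II, against 32.0%, 52.3%, 24.6% and 27.1% of all NKX2-1 peaks so selected. The intragenic minus upstream difference had no stable sign. For H3K27ac it was 2.71 points at the stricter q, 4.40 as the mean within genes, 3.14 without EGFR, 11.3 without ERRFI1, −15.6 for the strongest peaks, the lowest of 15 alternatives, and −7.85 to 0.315 without each line. For H3K4me1 it was 3.26 at the stricter q, 16.2 for the strongest peaks, 1.37 with 10 kb flanks, 4.67 by summits, 1.32 within genes, 15.6 without ERRFI1, −23.8 without EGFR, the lowest of 15 alternatives, −14.8 without ERBB3 and −6.28 to −2.11 without each line. No p was under 0.125, the smallest 4 lines allow.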
